A study of Homo sapiens with 12 samples.

Results

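The 44 genes described here encode the machinery that copies DNA, and they were followed in SK-UT-1 cells exposed to a pair of BET bromodomain inhibitors. The genes were taken by name from a list of replication licensing, fork and nucleotide supply genes, and all 44 were found among the 22784 gene symbols with expression values. SK-UT-1 is an established human cell line that was grown from a leiomyosarcoma of the uterus, and every library came from this 1 line, so the values describe 1 cellular background. RNA-seq was performed after 48 h with the DMSO vehicle (the libraries labelled VEH), with 5 µM JQ1 or with 5 µM I-BET 762. The labels list 4 libraries for each of the 3 groups, and 10 of the 12 are analysed here, namely DMSO replicates 13 to 15, JQ1 replicates 17 to 20 and I-BET 762 replicates 21 to 23. The remaining libraries, DMSO 16 and I-BET 762 24, were not analysed here. No label says whether the replicates were separate cultures, so the p-values given measure only the spread between these libraries.

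Replication is prepared in G1, when the origin recognition complex (ORC1 to ORC6), CDC6 and CDT1 load the MCM2-7 helicase onto origins in an inactive form, a step called licensing that geminin (GMNN) blocks by binding CDT1. In S phase, CDC45 and the GINS proteins join MCM2-7 to form the active helicase. DNA polymerase alpha with primase lays down primers, the loader RFC1 to RFC5 places the sliding clamp PCNA, and polymerases delta and epsilon extend the new strands from deoxynucleotides supplied by ribonucleotide reductase, TYMS and TK1. Many of these genes are transcribed at the G1 to S transition under E2F transcription factors. BET proteins bind acetylated histones and promote transcription, and JQ1 and I-BET 762 compete for their acetyl-lysine pocket.

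Values are the authors' normalized counts, that is, reads on a gene divided by a scaling factor of its library. Reads on genes ranged from 35564586 to 39658989 per library. Of the replication genes, 40 had a mean of at least 1000 normalized counts in each group, and only POLA2, the second subunit of polymerase alpha, was low, at 46.1 to 90.4 normalized counts. JQ1 replicate 18 stood apart most from the other JQ1 libraries: its pairwise chi-square per gene was 20.6 to 22.1, against at most 15.3 for any other pair within a group. JQ1 replicate 20 came next, at 15.3 against JQ1 replicate 17 and 12.6 against JQ1 replicate 19. The remaining pairs reached at most 7.32. JQ1 replicate 18 was the highest of the JQ1 libraries for 30 of the 44 genes and the lowest for 7. Counts of calls for the replication genes are therefore also given without it where they change. Of the smooth muscle markers, ACTA2, CALD1 and TAGLN were expressed, ACTG2 was at or under the 3-read floor in each group, and MYH11 was not analysed here. The summed level of the 9 smooth muscle markers used was 20920 to 21520 normalized counts with DMSO, 10870 to 11520 with JQ1 and 12190 to 12760 with I-BET 762. Of the 8 tested for a change, 7 fell with JQ1 and 6 with I-BET 762, and 1, SMTN, rose with each. TAGLN stood at 1565 to 1651 normalized counts with DMSO, 108 to 143 with JQ1 and 143 to 165 with I-BET 762. The summed level of 4 proliferation markers (MKI67, TOP2A, CCNB1 and BUB1) was 106200 to 114200 with DMSO, 83920 to 97270 with JQ1 and 91700 to 94650 with I-BET 762. Of these, 3 fell with each inhibitor, while BUB1 was at log2 0.13 with JQ1 and 0.11 with I-BET 762, without a call. The part of either marker list in the changes of the replication genes was not tested. Epithelial markers (6 genes) summed to 1229 to 1294 with DMSO, 512.2 to 602.3 with JQ1 and 498.9 to 547.4 with I-BET 762. Leukocyte markers summed to at most 37.0 normalized counts, with PTPRC at the floor in each group, and endothelial markers to at most 7.40. In bulk RNA, fewer cells in S phase and less RNA of a gene in each cell cannot be told apart.

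Promoter sequence was examined because the genes are known as E2F targets and yet moved in both directions. RefSeq promoters (GRCh38.p14, 250 bases before to 50 after the start site) were matched for 38 of the 44 genes. MCM4, MCM5, GINS4, POLD3, RPA2 and RPA3 were the others. The E2F letters searched were TTTCGCGC, TTTGGCGC, TTTCCCGC and TTTGCCGC on either strand. Windows of 30 bases around a match are given in the direction of transcription, with the matched letters in capitals, first for 4 genes that fell with both inhibitors (MCM2, GINS1, GINS2 and POLE2) and then for 5 that rose with both (CDC6, MCM6, MCM7, POLE and CLSPN). They were chosen to show that the letters occur in genes that moved in either direction.
MCM2, chr3:127598402-127598431, plus strand: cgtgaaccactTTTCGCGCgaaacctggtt
GINS1, chr20:25407667-25407696, plus strand: agctttgttcgGCGCCAAAgcgcggagcgg
GINS2, chr16:85688967-85688996, minus strand: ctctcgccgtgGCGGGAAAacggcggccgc
POLE2, chr14:49688201-49688230, minus strand: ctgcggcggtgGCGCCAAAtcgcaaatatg
CDC6, chr17:40287875-40287904, plus strand: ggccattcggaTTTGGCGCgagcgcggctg
MCM6, chr2:135876515-135876544, minus strand: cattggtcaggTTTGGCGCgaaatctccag
MCM7, chr7:100101388-100101417, minus strand: ggggggcgacgTTTCGCGCcaatttcggtt
POLE, chr12:132687342-132687371, minus strand: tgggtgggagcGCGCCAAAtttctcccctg
CLSPN, chr1:35769965-35769994, minus strand: actctggctggGCGGGAAAgcaagaacagc

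E2F letters were found in 20 of the 38 matched genes (52.6%), against 4.0% of 27305 genes. In these counts, for each motif, any RefSeq promoter of a gene could hold the match. By this count, E2F letters were found in 6 of the 8 matched genes that fell with JQ1 and in 8 of the 19 that rose. In the 1 promoter nearest the canonical start site, 18 genes held E2F letters. GMNN and PCNA, which both rose with JQ1, held E2F letters only in another promoter. The NF-Y letters CCAAT were present in 24 of the 38 (63.2%, against 39.7% of all genes), in 4 of the 8 that fell and in 14 of the 19 that rose. The E-box CACGTG was present in 6 of the 38 (15.8%, against 8.8%), and the CHR letters TTTGAA or TTCGAA in 2 of the 38 (5.3%, against 19.5%). Matches on both strands were counted, the 4 E2F spellings can overlap each other on opposite strands, as they do in MCM2 and MCM6, and a gene counted once for each motif. A match is a description of the letters and not evidence of binding. RRM2 and ORC4, the genes with the largest rises with JQ1, held no E2F letters. The 250 bases upstream of their start sites are given with CCAAT in capitals for RRM2, where it occurred 3 times, and CACGTG in capitals for ORC4.
RRM2, chr2:10122489-10122738, plus strand: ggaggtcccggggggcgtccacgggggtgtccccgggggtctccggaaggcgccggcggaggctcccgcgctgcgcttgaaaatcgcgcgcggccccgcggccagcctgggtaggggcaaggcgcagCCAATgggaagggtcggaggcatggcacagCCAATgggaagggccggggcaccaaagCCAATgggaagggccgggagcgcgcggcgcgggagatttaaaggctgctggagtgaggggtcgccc
ORC4, chr2:148020738-148020987, minus strand: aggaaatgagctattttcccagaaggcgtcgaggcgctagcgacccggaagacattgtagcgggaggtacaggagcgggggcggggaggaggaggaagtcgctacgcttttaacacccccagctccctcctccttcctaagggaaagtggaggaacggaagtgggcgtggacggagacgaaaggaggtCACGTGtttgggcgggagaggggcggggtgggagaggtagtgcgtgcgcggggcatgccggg

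To determine how BET inhibition altered the replication genes, each inhibitor was compared with DMSO. With JQ1, 21 of the 44 genes rose and 11 fell at an adjusted p under 0.05 (limma, Benjamini-Hochberg over 14839 genes), led by a rise of RRM2 and ORC4 and a fall of MCM5 and POLE2. With I-BET 762, 20 rose and 7 fell, and the same 4 genes were again those with the largest changes apart from CLSPN, which rose 1.49-fold. Most changes were small. Only 4 genes with JQ1 and 1 gene with I-BET 762 also passed a 1.5-fold change, the rule used here for a differentially expressed gene (DEG). These counts rest on the authors' scaling. When the libraries were instead set to equal totals, the median change of all tested genes moved from 0.01 to -0.18 (log2) for JQ1 and, for I-BET 762, from 0.00 to -0.10, and the counts of replication genes became 11 risen and 18 fallen with JQ1, and 14 risen and 14 fallen with I-BET 762. Over all 14839 genes, equal totals gave 3537 risen and 6904 fallen with JQ1, and 3365 risen and 5664 fallen with I-BET 762.

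The background of calls was high in this experiment. Of all tested genes, 36.0% rose and 35.6% fell with JQ1, and 29.9% rose and 31.3% fell with I-BET 762. The share of replication genes that changed with JQ1, 72.7%, was close to the 71.7% of all genes. DEGs were fewer among them: 2 up and 2 down with JQ1, where 13.3% of all genes were DEGs up and 22.8% down, and 0 up and 1 down with I-BET 762, where 8.96% were DEGs up and 17.9% down. The median change of the 44 genes was 0.11 with JQ1, against 0.01 over all genes, and 0.08 with I-BET 762, against 0.00. Because the replication genes are abundant, the 6780 genes with a mean of at least 1000 normalized counts were also counted, a background chosen after the values were seen. Of these, 3486 rose and 1734 fell with JQ1, and 2938 rose and 1507 fell with I-BET 762. Rises thus outnumbered falls among abundant genes in general. DEGs made up 21.5% of the 6780 genes with JQ1 (4 of the 41 replication genes among them) and 12.0% with I-BET 762 (1 of 41). The median changes of the 6780 genes were 0.15 and 0.10.

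**Figure D1:**
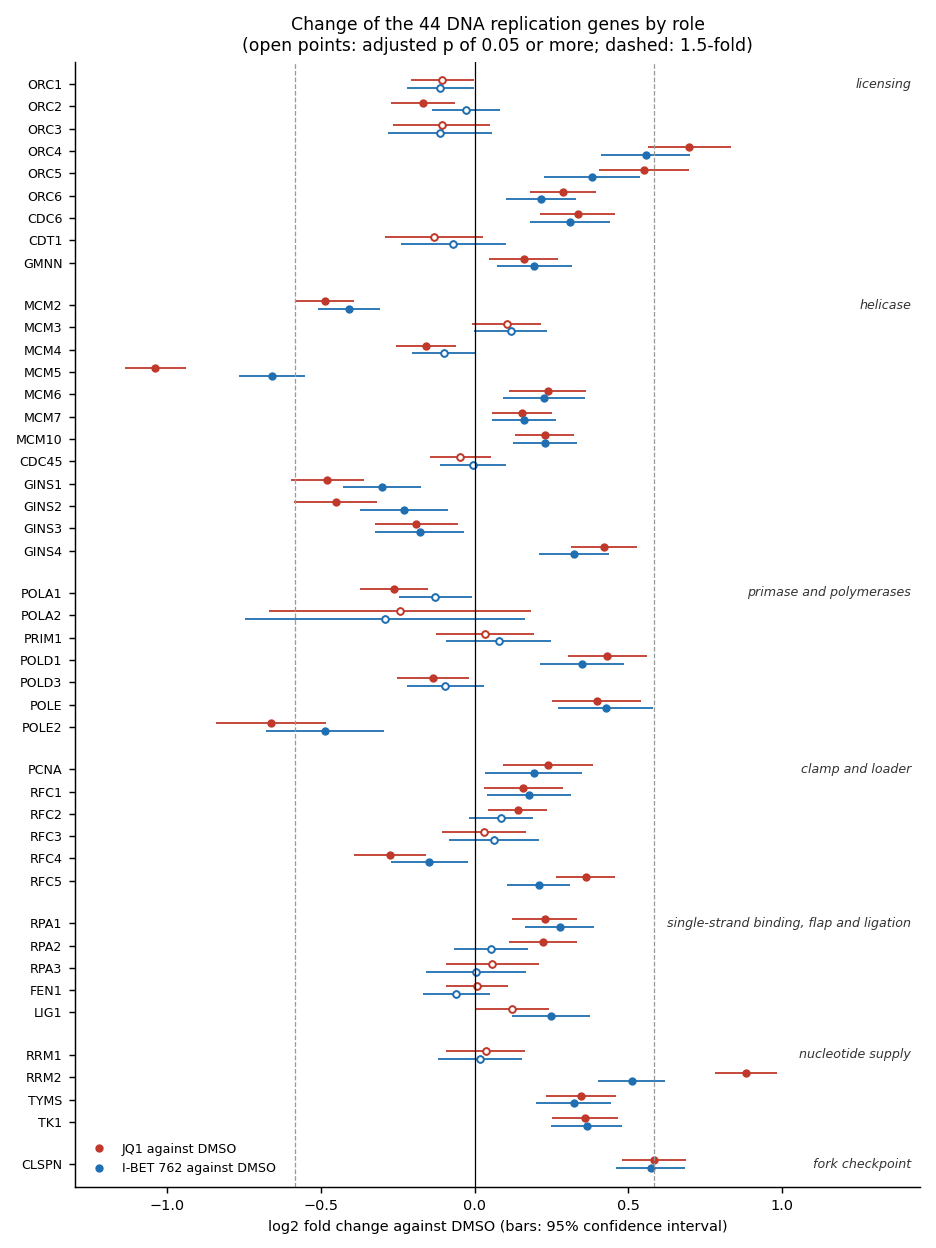
Log2 fold change of each of the 44 replication genes against DMSO, grouped by role, with JQ1 in red and I-BET 762 in blue. Bars are 95% confidence intervals, open points missed an adjusted p of 0.05, and dashed lines mark a 1.5-fold change. MCM5 lies farthest left and RRM2 farthest right, and MCM2-7 and GINS each hold genes on both sides of 0.

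The comparisons with DMSO share the same 3 DMSO libraries, so their calls are not independent and are given side by side. Of the 44 genes, 19 rose with both inhibitors, 7 fell with both (MCM2, MCM5, GINS1, GINS2, GINS3, POLE2 and RFC4), and 11 were called with neither. Calls shared by the inhibitors were not counted over all genes, so these counts are not read as a trait of the replication genes. ORC2, MCM4, POLA1 and POLD3 fell with JQ1 and were not called with I-BET 762, RFC2 and RPA2 rose with JQ1 and were not called with I-BET 762, and LIG1 rose with I-BET 762 and was not called with JQ1. None of the 44 genes was called in opposite directions, which was likewise not counted over all genes. Without JQ1 replicate 18, 21 genes rose and 13 fell with JQ1, and 21 rose and 11 fell with I-BET 762. Over all genes, 5426 rose and 5383 fell with JQ1 in this setting, against 5344 and 5289 in the main fit. With I-BET 762, 4792 rose and 4955 fell, against 4434 and 4639. ORC1, ORC3, MCM4 and POLA1 then also passed the threshold as falls with I-BET 762. Their log2 changes with I-BET 762 were the same in both fits. Their SEs were smaller, from 0.052 to 0.045 for ORC1 and from 0.080 to 0.041 for ORC3.

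Of the 9 licensing genes, 5 rose with JQ1 and 1 fell, and 5 rose with I-BET 762 and 0 fell. Without JQ1 replicate 18, 3 fell with JQ1 and 2 with I-BET 762, as ORC1 and ORC3 then passed the threshold with both. The origin recognition subunits did not move together. ORC4, a core subunit of the complex, stood at 1644, 1770 and 1786 normalized counts in the DMSO libraries. It stood at 2737, 3203, 2696 and 2638 with JQ1 and at 2634, 2538 and 2472 with I-BET 762. Each treated library lay above each DMSO library, and the JQ1 libraries lay above the I-BET 762 libraries by a small margin. ORC4 rose 1.62-fold with JQ1 (log2 0.70 ± 0.064 SE, limma adjusted p = 6.96e-08) and 1.47-fold with I-BET 762 (log2 0.56 ± 0.068 SE, limma adjusted p = 3.6e-06). Of its 112 exon stretches of 75 bases, 17 have an exact copy elsewhere in the genome, so its level is uncertain.

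ORC5, another subunit of the complex, rose 1.46-fold and 1.30-fold with JQ1 and I-BET 762, and ORC6 rose 1.22-fold and 1.16-fold. Of the 54 such stretches of ORC6, 7 have a copy elsewhere, so its level is uncertain as well. CDC6, the loading ATPase, rose 1.26-fold and 1.24-fold. ORC1, a subunit with ATPase activity and the least changed of the licensing genes with JQ1, stood at 2364, 2594 and 2504 normalized counts with DMSO, at 2254, 2406, 2281 and 2302 with JQ1, and at 2265, 2356 and 2283 with I-BET 762. Its JQ1 libraries overlapped the DMSO range and its I-BET 762 libraries lay just below it. Its log2 change of -0.11 with either inhibitor missed the threshold (limma adjusted p = 0.0616 and 0.0741). ORC2 fell by 0.17 on the log2 scale with JQ1 alone. ORC3 was at -0.11 with both inhibitors and CDT1 at -0.13 and -0.07, all without a call. GMNN, which restrains CDT1, rose by 0.16 and 0.19 (log2), although its change with JQ1 turned to -0.03 when libraries were set to equal totals.

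Shares within a complex do not depend on how the libraries are scaled. They were taken as normalized counts per kilobase of the canonical transcript, over the sum of the complex in the same library, and are descriptions without a test. Within ORC, ORC4 held the smallest share in each group, at 4.71% ± 0.13 (SD, n = 3) with DMSO, 6.77% ± 0.19 (n = 4) with JQ1 and 6.36% ± 0.24 (n = 3) with I-BET 762. ORC5 held 16.2% ± 0.65, 21.0% ± 0.68 and 19.3% ± 0.53 in the same order. ORC3 held 21.8% ± 0.35, 18.0% ± 1.31 and 18.5% ± 0.26, and ORC1 14.2% ± 0.20, 11.7% ± 0.46 and 12.1% ± 0.13. For ORC4 and ORC5 the shares were thus higher with both inhibitors, and for ORC1 and ORC3 lower, by more than these SDs.

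Of the 12 helicase genes, 4 rose and 6 fell with JQ1, and 4 rose and 5 fell with I-BET 762, which became 5 and 6 without JQ1 replicate 18, with MCM3 and MCM4 added. MCM5 changed most. It stood at 7629, 7433 and 7173 normalized counts in the DMSO libraries, at 3620, 3472, 3517 and 3826 with JQ1 and at 4657, 4834 and 4580 with I-BET 762. The groups did not overlap, with JQ1 lowest, I-BET 762 between and DMSO highest. MCM5 was 2.05-fold lower with JQ1 (log2 -1.04 ± 0.047 SE, limma adjusted p = 1.73e-11) and 1.58-fold lower with I-BET 762 (log2 -0.66 ± 0.050 SE, limma adjusted p = 1.83e-08), the only DEG of the 44 genes with both inhibitors.

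MCM2 stood at 10234, 10131 and 10206 normalized counts with DMSO, at 7364, 6832, 7332 and 7562 with JQ1 and at 7821, 7656 and 7544 with I-BET 762. It fell 1.40-fold and 1.33-fold, and its treated libraries lay below each DMSO library. MCM6, of the same ring, rose 1.18-fold and 1.17-fold, and MCM7 rose 1.11-fold and 1.12-fold, a rise that turned to a log2 change of -0.03 with JQ1 under equal totals. MCM3 was at log2 0.10 and 0.12 without a call, and MCM4 fell by 0.16 with JQ1 and was at -0.10 without a call with I-BET 762. MCM10, which helps to activate the loaded helicase, rose 1.17-fold with each inhibitor.

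**Figure D2:**
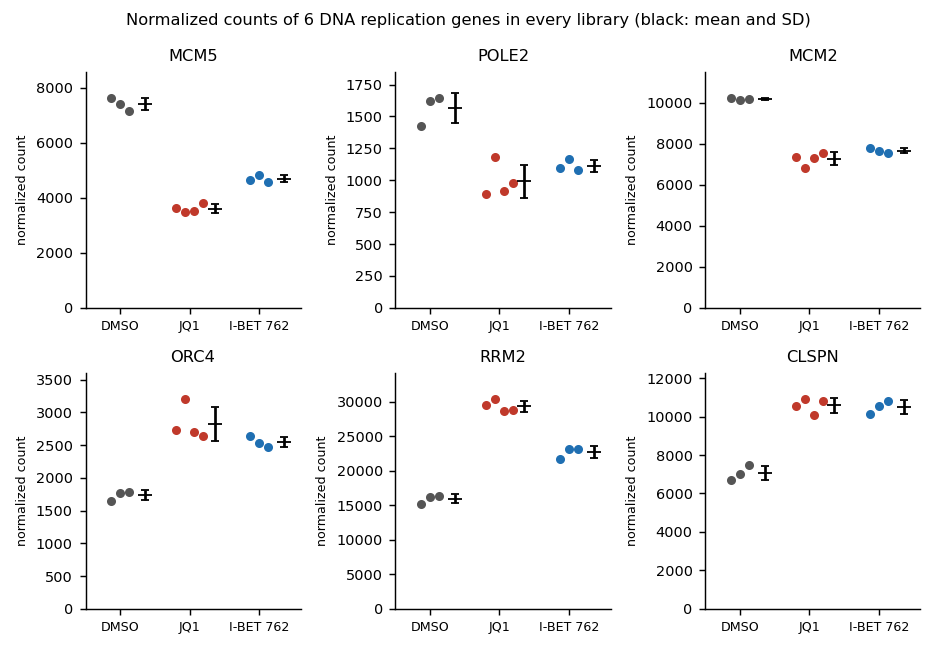
Normalized counts (y axis, from 0) of MCM5, POLE2, MCM2, ORC4, RRM2 and CLSPN in each library, with 1 point a library and the group mean ± SD in black. For MCM5 and RRM2 the 3 groups do not overlap, with I-BET 762 between DMSO and JQ1, and for POLE2, MCM2 and CLSPN the inhibitor groups overlap each other but not DMSO.

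Within MCM2-7, whose proteins assemble in equal numbers, MCM7 held the largest share of the transcripts per kilobase, at 32.7% ± 0.15 with DMSO, 38.1% ± 0.31 with JQ1 and 37.1% ± 0.51 with I-BET 762 (SD, n = 3, 4 and 3). MCM5 held 9.81% ± 0.40, 5.00% ± 0.26 and 6.31% ± 0.09, so that with either inhibitor MCM5 passed from the share second from the bottom to the lowest of the ring, below MCM6 at 7.47% ± 0.19, 9.24% ± 0.62 and 8.88% ± 0.16. MCM2 held 13.6% ± 0.29, 10.2% ± 0.66 and 10.4% ± 0.17. The ratio of MCM5 to MCM3 per kilobase was 0.569 ± 0.027 with DMSO, 0.258 ± 0.017 with JQ1 and 0.332 ± 0.0071 with I-BET 762. The sum over the ring was 21870 ± 356 normalized counts per kilobase with DMSO, 20870 ± 726 with JQ1 and 21500 ± 368 with I-BET 762.

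CDC45, the least changed helicase gene with JQ1, stood at 2189, 2199 and 2197 normalized counts with DMSO, at 2117, 2232, 2046 and 2112 with JQ1 and at 2176, 2255 and 2134 with I-BET 762. The groups overlapped, and its log2 change was -0.05 with JQ1 (95% interval -0.15 to 0.05) and 0.00 with I-BET 762 (-0.11 to 0.10). The GINS genes, whose products form a complex of equal parts, were split. GINS1 stood at 2758 ± 154 normalized counts with DMSO, 1978 ± 108 with JQ1 and 2235 ± 66.1 with I-BET 762, a fall of 1.39-fold and 1.23-fold. GINS2 fell 1.37-fold and 1.17-fold, and GINS3 fell 1.14-fold and 1.13-fold. GINS4, in contrast, rose 1.34-fold and 1.25-fold, from 1927 ± 123 normalized counts to 2578 ± 46.4 with JQ1 and 2408 ± 52.8 with I-BET 762. Of the canonical GINS4 transcript, 33.4% overlaps exons on the opposite strand, and for MCM2 and GINS3 the figures are 32.4% and 14.4%. The libraries were strand-specific per the labels, but the strand setting of the counting is not given in the sources used here, so reads from these overlaps could not be told apart if strand was ignored.

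**Figure D3:**
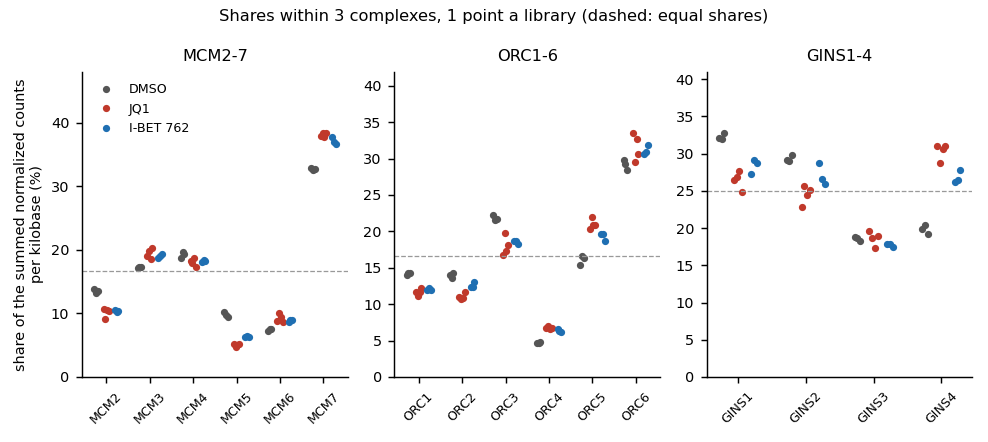
Share of each gene in the summed normalized counts per kilobase of its complex (y axis, %), for MCM2-7, ORC1-6 and GINS1-4, with 1 point a library and the dashed line at equal shares. MCM5 and GINS1 sit lower and MCM7, ORC4 and GINS4 higher in the treated libraries than in DMSO.

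GINS4 held 19.8% ± 0.60 of the GINS sum with DMSO, 30.3% ± 1.10 with JQ1 and 26.8% ± 0.90 with I-BET 762. GINS1 held 32.3% ± 0.43, 26.5% ± 1.20 and 28.3% ± 0.97. With JQ1, GINS4 thereby passed from below to above GINS1 in transcripts per kilobase, and the ratio of GINS1 to GINS4 was 1.63 ± 0.071 with DMSO, 0.874 ± 0.059 with JQ1 and 1.06 ± 0.037 with I-BET 762.

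Of the 7 primase and polymerase genes, 2 rose and 3 fell with JQ1, and 2 rose and 1 fell with I-BET 762, or 2 without JQ1 replicate 18, when POLA1 also fell. Within polymerase epsilon, the catalytic subunit rose and POLE2 fell. POLE2, the accessory subunit of polymerase epsilon, stood at 1429, 1623 and 1644 normalized counts with DMSO, at 894.4, 1178, 918.4 and 977.7 with JQ1 and at 1092, 1167 and 1083 with I-BET 762. Its treated libraries lay below each DMSO library, and JQ1 replicate 18 lay above the other JQ1 libraries and above those of I-BET 762. POLE2 fell 1.58-fold with JQ1 (log2 -0.66 ± 0.084 SE, limma adjusted p = 3.21e-06) and 1.40-fold with I-BET 762 (log2 -0.49 ± 0.090 SE, limma adjusted p = 0.000222).

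POLE, the catalytic subunit of the same enzyme, rose 1.32-fold and 1.34-fold. The ratio of POLE2 to POLE per kilobase was 1.17 ± 0.15 with DMSO, 0.567 ± 0.12 with JQ1 and 0.618 ± 0.032 with I-BET 762. POLD1, the catalytic subunit of polymerase delta, rose 1.35-fold and 1.27-fold, and its accessory subunit POLD2 rose 1.14-fold and 1.21-fold. POLD3, another accessory subunit, fell by 0.13 (log2) with JQ1 and was at -0.10 without a call with I-BET 762. The fall of POLD3 is a weak call, since the JQ1 and DMSO libraries overlapped and 10 of 19 alternative settings lost it. POLA1, the catalytic subunit of polymerase alpha, fell by 0.26 (log2) with JQ1 and was at -0.13 (limma adjusted p = 0.0589) with I-BET 762.

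PRIM1, the small primase subunit, was the least changed of this group with JQ1, at 785.5, 921.7 and 874.5 normalized counts with DMSO, 825.2, 964.0, 815.4 and 918.9 with JQ1 and 900.3, 952.4 and 868.3 with I-BET 762. The groups overlapped, and the log2 change was 0.03 with JQ1 (95% interval -0.13 to 0.19). POLA2 was at 68.0 ± 19.5 normalized counts with DMSO, 56.3 ± 8.38 with JQ1 and 54.4 ± 8.84 with I-BET 762, with a log2 interval of -0.67 to 0.18 with JQ1, which does not resolve a change of 1.5-fold. Of its canonical transcript, 55.8% overlaps exons of another annotated gene on the same strand, and for PRIM1 the share is 28.9% and for POLD1 12.4%, so the levels of these genes are uncertain.

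Of the 6 genes of the clamp and its loader, 4 rose and 1 fell with JQ1, and 3 rose and 1 fell with I-BET 762. With JQ1 replicate 18 left out, 3 rose with JQ1, as RFC1 lost its call. PCNA, the clamp itself and the most abundant of the 44 genes per kilobase (10460 ± 606 normalized counts per kilobase with DMSO), rose 1.18-fold and 1.14-fold. RFC5, a small subunit of the loader, stood at 4182, 4356 and 4304 normalized counts with DMSO, at 5453, 5760, 5602 and 5187 with JQ1 and at 4955, 4946 and 4943 with I-BET 762. The groups did not overlap, with I-BET 762 between the others. RFC5 rose 1.28-fold with JQ1 (log2 0.36 ± 0.045 SE, limma adjusted p = 2.57e-06) and 1.16-fold with I-BET 762. RFC4, another small subunit, fell 1.21-fold and 1.11-fold, and 7 of 19 alternative settings lost the fall with I-BET 762. The ratio of RFC4 to RFC5 per kilobase was 1.17 ± 0.047 with DMSO, 0.749 ± 0.025 with JQ1 and 0.909 ± 0.024 with I-BET 762.

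RFC1, the large subunit of the loader, rose by 0.16 (log2) with JQ1 and 0.18 with I-BET 762, and RFC2 by 0.14 with JQ1, although under equal totals both turned with JQ1, to -0.03 and -0.05. RFC3 was the least changed gene of the loader with JQ1, at 1972, 2164 and 2229 normalized counts with DMSO, 1997, 2427, 2202 and 2056 with JQ1 and 2237, 2202 and 2203 with I-BET 762. These ranges overlapped and the log2 change was 0.03 with JQ1 (95% interval -0.11 to 0.17).

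Of the 5 genes for single-strand binding, flap removal and ligation, 2 rose with each inhibitor and 0 fell. With JQ1, 3 rose when replicate 18 was left out, LIG1 being added. RPA1, the large subunit of the single-strand binding protein, stood at 6111, 6549 and 6520 normalized counts with DMSO, at 7261, 8084, 7246 and 7370 with JQ1 and at 7694, 7980 and 7569 with I-BET 762. Each treated library lay above each DMSO library, and RPA1 rose 1.17-fold and 1.21-fold. RPA2, the middle subunit, rose 1.17-fold with JQ1 and was at 1.04-fold without a call with I-BET 762. RPA3, the small subunit, was called with neither, at log2 0.06 and 0.00.

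FEN1, the flap endonuclease that trims Okazaki fragments, was the least changed of all 44 genes with JQ1. It stood at 4191, 4354 and 4379 normalized counts with DMSO, at 4148, 4651, 4226 and 4301 with JQ1 and at 4225, 4120 and 4060 with I-BET 762, with overlapping groups. Its log2 change was 0.01 with JQ1 (95% interval -0.09 to 0.11) and -0.06 with I-BET 762 (-0.17 to 0.05), and under equal totals the value with JQ1 became -0.18. LIG1, the ligase that joins those fragments, rose 1.19-fold with I-BET 762 and was at 1.09-fold with JQ1 (limma adjusted p = 0.0659).

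Of the 4 nucleotide supply genes, 3 rose and 0 fell with each inhibitor. RRM2, the small subunit of ribonucleotide reductase whose level is known to peak in S phase, stood at 15188, 16170 and 16391 normalized counts with DMSO, at 29543, 30369, 28607 and 28840 with JQ1 and at 21679, 23167 and 23196 with I-BET 762. The 3 groups did not overlap. RRM2 rose 1.84-fold with JQ1 (log2 0.88 ± 0.048 SE, limma adjusted p = 1.42e-10) and 1.43-fold with I-BET 762 (log2 0.51 ± 0.051 SE, limma adjusted p = 3.9e-07).

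RRM1, the large subunit of the same enzyme, showed no such shift. It stood at 11888, 12859 and 12687 normalized counts with DMSO, at 12419, 14534, 12430 and 11907 with JQ1 and at 12764, 12820 and 12303 with I-BET 762, with overlapping groups and a log2 change of 0.04 with JQ1 (95% interval -0.09 to 0.16) that became -0.15 under equal totals. The ratio of RRM2 to RRM1 per kilobase was 1.23 ± 0.017 with DMSO, 2.22 ± 0.14 with JQ1 and 1.73 ± 0.091 with I-BET 762. TYMS, which makes thymidylate, rose 1.27-fold and 1.25-fold, and TK1, which salvages thymidine, rose 1.28-fold and 1.29-fold. Of the canonical TYMS transcript, 66.5% overlaps exons on the opposite strand, of ENOSF1 and TYMSOS.

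CLSPN encodes claspin, the fork protein through which ATR activates CHK1. It stood at 6702, 7025 and 7470 normalized counts with DMSO, at 10532, 10912, 10068 and 10835 with JQ1 and at 10138, 10548 and 10816 with I-BET 762. Each treated library lay above each DMSO library, while the inhibitor groups overlapped. CLSPN rose by 0.58 ± 0.049 (log2, SE, limma adjusted p = 2.52e-08) with JQ1 and 0.57 ± 0.052 (limma adjusted p = 1.42e-07) with I-BET 762, just inside the log2 threshold of 0.585 for a DEG.

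JQ1 and I-BET 762 are both triazole-fused diazepines, with a thiophene ring on the diazepine in JQ1 and a benzene ring in I-BET 762. To compare them at the same dose and time, the 4 JQ1 libraries were set against the 3 I-BET 762 libraries in the same limma fit, 1 pair of compounds with p adjusted over all 14839 genes. RRM2, RPA2 and RFC5 were higher with JQ1, and MCM5, GINS2, GINS1 and ORC2 were lower. Over all genes, 13.3% were higher and 14.0% lower with JQ1 than with I-BET 762, and 1.73% and 3.59% were also past 1.5-fold, as 0 of the 44 replication genes were.

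MCM5 was 1.30-fold lower with JQ1 than with I-BET 762 (log2 -0.38, 95% interval -0.48 to -0.28, limma adjusted p = 3.57e-05), and RRM2 was 1.29-fold higher (log2 0.37, 95% interval 0.27 to 0.47, limma adjusted p = 4.84e-05). In both genes the libraries of the compounds did not overlap. GINS2 was 1.17-fold and GINS1 1.13-fold lower with JQ1, ORC2 was 1.10-fold lower, and RPA2 and RFC5 were 1.12-fold and 1.11-fold higher. Without JQ1 replicate 18 there were 4 genes higher and 7 lower, with POLD1 added to the former and POLE2, POLA1 and RFC4 to the latter, and under equal totals 1 higher and 13 lower. Over all 14839 genes, equal totals gave 1002 higher and 3525 lower with JQ1. The call for ORC2 was lost in 10 of 19 alternative settings.

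For the other 37 genes no difference was called. Each of their 95% intervals lay within a 1.5-fold difference, the widest reaching from -0.38 to 0.47 (log2) for POLA2. CLSPN differed by 0.01 (95% interval -0.09 to 0.12), TK1 by -0.01 (-0.11 to 0.10), MCM10 by 0.00 (-0.10 to 0.10) and POLE2 by -0.17 (-0.35 to 0.00). Of the 44 genes, 29 had the larger absolute change against DMSO with JQ1, a count not made over all genes. The median absolute log2 change over all genes was also larger with JQ1, at 0.431 against 0.332 with I-BET 762. For the 44 genes it was 0.233 and 0.202.

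**Figure D4:**
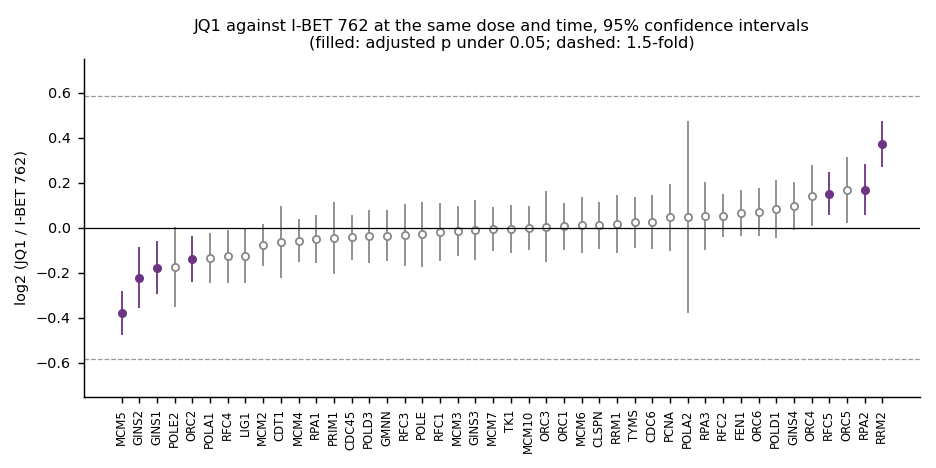
Log2 ratio of JQ1 to I-BET 762 (y axis) for each of the 44 replication genes, ordered by value, with 95% confidence intervals, filled points at an adjusted p under 0.05 and dashed lines at 1.5-fold. MCM5 at the left (-0.38) and RRM2 at the right (0.37) stand out, and each interval lies inside the dashed lines.

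Genes that work beside the 44 were also counted, from lists written with earlier results of these data known. Among 21 other replisome genes, 9 rose and 2 fell with each inhibitor, where the falls became 5 with JQ1 and 3 with I-BET 762 without JQ1 replicate 18. POLE4, a histone-fold subunit of polymerase epsilon, rose from a mean of 1159 normalized counts with DMSO to 2318 with JQ1 and 2070 with I-BET 762, where POLE2 fell. RNASEH2B, a subunit of the nuclease that removes RNA from DNA, fell by 1.05 and 0.88 (log2). Among 21 other initiation and licensing regulators, 7 rose and 8 fell with JQ1, and 8 rose and 7 fell with I-BET 762. LRWD1, a protein that associates with ORC on chromatin, rose by 1.26 and 0.82 (log2).

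Among 24 other nucleotide supply genes, 7 rose and 11 fell with JQ1, and 6 rose and 10 fell with I-BET 762. Without JQ1 replicate 18, 13 fell with JQ1, and 7 rose and 11 fell with I-BET 762. RRM2B, the p53-inducible counterpart of RRM2, rose by 1.34 and 1.11 (log2), IMPDH2, an enzyme of guanine nucleotide synthesis, rose by 0.99 and 0.85, and CTPS2, a CTP synthase, fell by 1.32 and 1.05. Of 11 genes of chromatin replication, 5 rose and 5 fell with JQ1, and 5 rose and 4 fell with I-BET 762, and of 12 checkpoint genes 6 rose and 4 fell, and 5 rose and 4 fell, with 0 DEGs shared by the inhibitors in either list. Without JQ1 replicate 18, 5 of the chromatin replication genes fell with I-BET 762.

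Of 18 genes for E2F factors, pocket proteins and MuvB subunits, which regulate cell cycle transcription, 3 rose and 9 fell with JQ1, and 1 rose and 9 fell with I-BET 762. Without JQ1 replicate 18, 4 rose and 10 fell with JQ1, and 3 rose and 9 fell with I-BET 762. E2F2, an activator of S phase genes, fell by 1.78 and 1.29 (log2), and the repressors E2F8 and E2F7 fell by 1.13 and 0.82 and by 0.90 and 0.62. The median change of the list was -0.17 with each inhibitor.

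**Figure D5:**
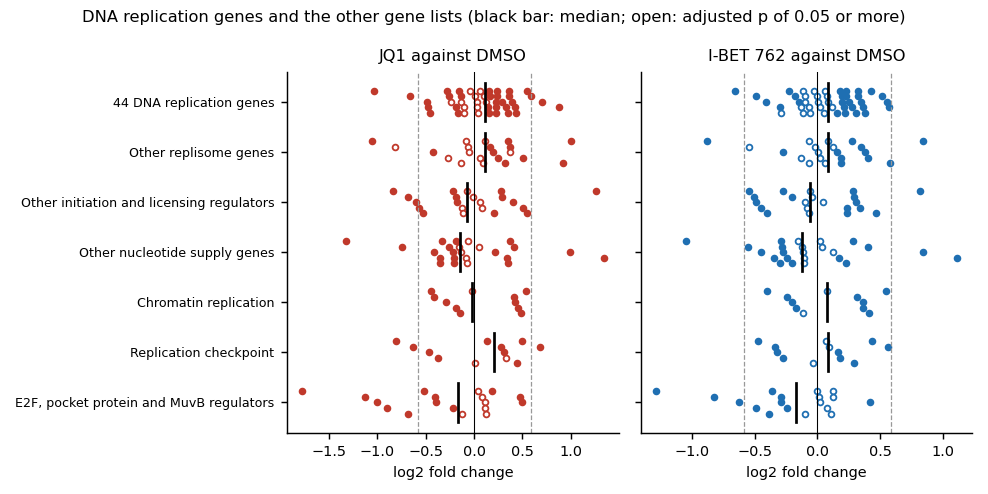
Log2 fold change against DMSO (x axis) of the 44 replication genes and of 6 lists of related genes, with JQ1 left and I-BET 762 right. Points are genes, open where the adjusted p was 0.05 or more, black bars are medians and dashed lines mark 1.5-fold. The 44 genes keep mostly within the dashed lines, and the E2F list has its median at -0.17.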

How the data were processed

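RNA-seq of SK-UT-1 cells was analysed in 10 libraries of 3 groups, defined by the treatment in their labels. As deposited by the authors, the values are log2 of the DESeq2-normalized count plus 1 per gene symbol. Per the labels and the study's methods, Trimmomatic trimmed the reads after a FastQC 0.73 check, HISAT2 2.2.1 placed them on hg38, featureCounts 2.0.3 counted them on Gencode genes, DESeq2 normalized the counts, and outlier samples were excluded. The strand setting of the counting is not given in the sources used here. Normalized counts and reads were recovered by undoing the log2. Of the values, 99.74% to 99.78% per library were whole reads within 0.05 of a read. The floor that a count of 0 leaves was set at 3 reads (normalized counts of 2.73 to 3.30 by library) and covers counting error only.

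Genes with at least 10 normalized counts in at least 3 libraries (14839 symbols, all 44 replication genes among them) were fitted on the log2 values with limma 3.58.1 in R 4.3.3, with 1 linear model over the 10 libraries and an intensity trend. P-values were adjusted by Benjamini-Hochberg over these genes in each of 3 contrasts. Rose or fell means an adjusted p under 0.05, and a DEG also passed 1.5-fold. The limma code was tested on simulated data. No column of the authors' own comparisons was used.

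The members and the gene lists were chosen with earlier results of these data known, so no test over a list is given. Values in every library are given for DEGs and, in each role, for the genes with the largest and smallest absolute change with JQ1. MCM2 was added after its values were seen. From the other lists, at most 3 DEGs shared by both inhibitors were named. Exon overlap and copies of 75-base stretches came from Gencode 44 on hg38, promoters from RefSeq (GRCh38.p14). Tables and plots were made with Python 3.11.15, pandas 2.3.3, numpy 2.4.6 and matplotlib 3.10.9. The alternatives were pseudocounts of 0.5 and 5, all genes above 0, a mean of at least 100, equal totals, equal upper quartiles, no intensity trend, only the 2 groups compared, limma-voom on the recovered reads, DEGs counted at any fold or above 2-fold, and each library left out in turn. Limma-voom called 21 replication genes up and 11 down with JQ1, of 5333 and 5345 genes in all.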

Additional observations from a re-analysis of the deposited data

Results flagged for a closer look

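In 6 of the 44 replication genes, 1 of the 4 JQ1 libraries lay far from the others, with a gap to its nearest neighbour, as a share of the range of the group, over the Dixon 95% critical value for 4 samples. Chance gives such a gap in about 1 of 20 groups. The shares were 0.961 for POLA1, 0.871 for RFC1, 0.853 for RPA1, 0.845 for ORC5 and 0.837 for ORC3, each with JQ1 replicate 18 as the high library, and 0.834 for ORC6, with JQ1 replicate 20 as the low one. POLA1 stood at 3038 normalized counts in JQ1 replicate 18 and at 2675, 2677 and 2689 in the others. ORC3 stood at 3432 in JQ1 replicate 18, above each DMSO library (3014 to 3130), and at 2590, 2689 and 2727 in the others. Without JQ1 replicate 18, the change with JQ1 was -0.31 (log2) for POLA1, 0.11 for RFC1, 0.19 for RPA1, 0.485 for ORC5 and -0.20 for ORC3, so that ORC3 became a fall (limma adjusted p = 0.000379) and RFC1 lost its call (limma adjusted p = 0.0519).

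JQ1 and I-BET 762 differed from each other in 7 genes by the direct limma contrast. On the log2 scale of JQ1 over I-BET 762, the differences were -0.379 for MCM5, -0.222 for GINS2, -0.177 for GINS1, -0.141 for ORC2, 0.152 for RFC5, 0.17 for RPA2 and 0.372 for RRM2. In each of them the libraries of the compounds did not overlap, as was also so for ORC4, ORC5 and GINS4, which were not called. The share of all genes without overlap was not counted. Without JQ1 replicate 18, each of these 7 differences kept its call, at -0.36 for MCM5 and 0.36 for RRM2. MCM5 and RRM2 kept it in each alternative run, and ORC2, GINS1, GINS2, RFC5 and RPA2 each lost it in at least 1.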

How the results depend on the processing

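Of the 32 calls with JQ1, 20 held in each of 19 alternatives (11 risen and 9 fallen genes, MCM5, POLE2, ORC4, RRM2 and CLSPN among them), and 8 others were lost only under equal totals. With I-BET 762, 19 of 27 calls held in each, and between the inhibitors 2 of 7, MCM5 and RRM2. The calls with I-BET 762 lost most often were those of RFC4 (in 7 of 19 alternatives), PCNA (6), GINS3 (5) and RFC1 (5). Equal totals gave 11 risen and 18 fallen genes with JQ1 (1 DEG up and 5 down, median -0.073), 14 fallen with I-BET 762 (median -0.015), and 1 higher and 13 lower between the inhibitors (median -0.094). The same setting reversed the direction with JQ1 of GMNN (-0.025), MCM7 (-0.032), RFC1 (-0.027), RFC2 (-0.045), RFC3 (-0.154), FEN1 (-0.178) and RRM1 (-0.149), and turned MCM3 (-0.081), LIG1 (-0.064), PRIM1 (-0.152) and RPA3 (-0.128), which were called in neither fit, below 0. Which scaling is nearer to the RNA content of the cells was not tested.

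With no fold threshold, 21 genes were DEGs up and 11 down with JQ1, 20 and 7 with I-BET 762, and 3 and 4 between the inhibitors. With a fold change over 2, 0 were up and 1 down with JQ1 and 0 down with I-BET 762. With only the 2 groups compared, 12 fell with I-BET 762, and without an intensity trend 2 were lower with JQ1 than with I-BET 762. The median change of the 44 genes with I-BET 762 was 0.082 in the main fit. It was also 0.082 with only the 2 groups compared and without JQ1 replicate 18. Both settings keep every I-BET 762 and DMSO library, so the changes stay the same. Only the estimate of the spread, and the p-values that rest on it, can differ. Why the spread differed was not tested.

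Leaving out 1 library at a time gave 5 to 11 fallen genes with I-BET 762, with 11 when JQ1 replicate 18 was left out, and 0 to 1 DEGs up, with 1 without DMSO replicate 15 or I-BET 762 replicate 21. Between the inhibitors it gave 1 to 4 genes higher and 1 to 7 lower with JQ1, with 4 and 7 without JQ1 replicate 18, 2 lower without JQ1 replicate 17 or I-BET 762 replicate 22, 1 and 1 without I-BET 762 replicate 21, and 1 and 2 without I-BET 762 replicate 23. No paired analysis was possible because the replicate numbers 13 to 24 are all different.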
